A study of Mus musculus with 9 samples.

Results

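The genes followed here were Pdcd1, Lag3, Havcr2, Tigit, Cd160, Btla, Cd200, Cd244 and Cd69. These 9 genes were taken by name as a set of receptors that restrain lymphocytes. All 9 were found among the 50508 rows of the counts table, and all 9 passed the filter on low counts that left 14708 genes for testing. RNA was read from 3 sorted spleen populations of untreated mice 8 weeks old. TDC, the population under study, was set against conventional dendritic cells (DC) and conventional T cells. All mice were homozygous for Zbtb46-GFP, a reporter of a locus that conventional DC use, so no group without it was present. Each population had 3 libraries, and each library was a pool of 5 mice (replicate 1) or 6 mice (replicates 2 and 3). How the cells were gated is not stated.

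Inhibitory receptors set the threshold of lymphocyte responses. PD-1 (Pdcd1), LAG3, TIM-3 (Havcr2), TIGIT, BTLA and CD160 are found on T or natural killer cells and bind ligands on neighbouring cells, and several of them are also made by myeloid cells. PD-1, TIGIT and BTLA recruit phosphatases to motifs in their tails, while CD160 is mainly anchored to the membrane by a lipid and has no such tail. CD244 binds CD48 and can inhibit or activate. Cd200 and Cd69 are relatives by use rather than by mechanism: CD200 is the ligand of the inhibitory receptor CD200R1, and CD69 is an early activation lectin that holds lymphocytes in tissue by removing the exit receptor S1PR1 from the cell surface.

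Libraries held 14594850 to 22677130 reads in TDC, 14973484 to 25676640 in DC and 10986544 to 18071425 in T cells, and 1 read was worth 0.0383 to 0.0897 CPM (reads as a share of the library, on the usual CPM scale, with TMM factors). All values below are such CPM unless reads are named, values per library follow the order of replicates 1, 2 and 3, and errors are SD over n = 3 libraries. Fold changes are log2 values with the standard error (SE) from edgeR's quasi-likelihood fit of all 9 libraries, with p-values adjusted by Benjamini-Hochberg over the 14708 genes and a gene called at an adjusted p under 0.05. The T cell marker list was called lower in TDC than in T cells for 10 of 10 genes, with Trac, a constant segment of the T cell receptor, at 33.1, 9.93 and 34.7 CPM in TDC pools and 1156, 1608 and 1107.5 CPM in T cell pools. Over the 10 genes, the TDC mean was 1.85% to 4.98% of the T cell mean, with a median of 2.13%. The 10 genes of the conventional DC list were at 4.66% to 32.4% of the DC mean in TDC, with a median of 13.1%. Red pulp macrophage markers were higher in TDC than in either control for 10 of 10 genes, with a summed level of 49520 to 81020 CPM in TDC pools, 188 to 305 CPM in DC pools and 1.83 to 5.19 CPM in T cell pools. In such bulk libraries, fewer cells of a type and less RNA per cell cannot be told apart.

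The 9 genes fell into different patterns. Pdcd1, Cd160 and Cd69 were below T cells in TDC, Lag3, Havcr2 and Cd244 were higher, and Btla was lower in TDC than in DC. Against T cells, 6 of 9 genes were called, where 33.0% of all tested genes were. Of them 3 were higher and 3 lower, where 21.8% and 11.2% of all tested genes were. Against DC, 1 of 9 was called, where 14.1% of all tested genes were, and it was lower, where 4.60% of all tested genes were. No member was called higher than in DC by edgeR, where 9.55% of all tested genes were, with 1 (Lag3) at an unadjusted p under 0.05 and 1 called by each of DESeq2 and limma-voom. Between the controls, 7 of 9 genes were called, where 23.8% of all tested genes were. DC were higher for 3 genes and lower for 4, where 15.4% and 8.41% of all tested genes were called. The median log2 fold change over the 9 genes was -1.96 for TDC against T cells and -0.24 for TDC against DC, beside 0.14 and 0.01 over all tested genes. Without TDC replicate 3, the genes called lower than in T cells came to 5. The count called lower than in DC was 0 without TDC replicate 2 and 2 without T cell replicate 3.

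**Figure D1:**
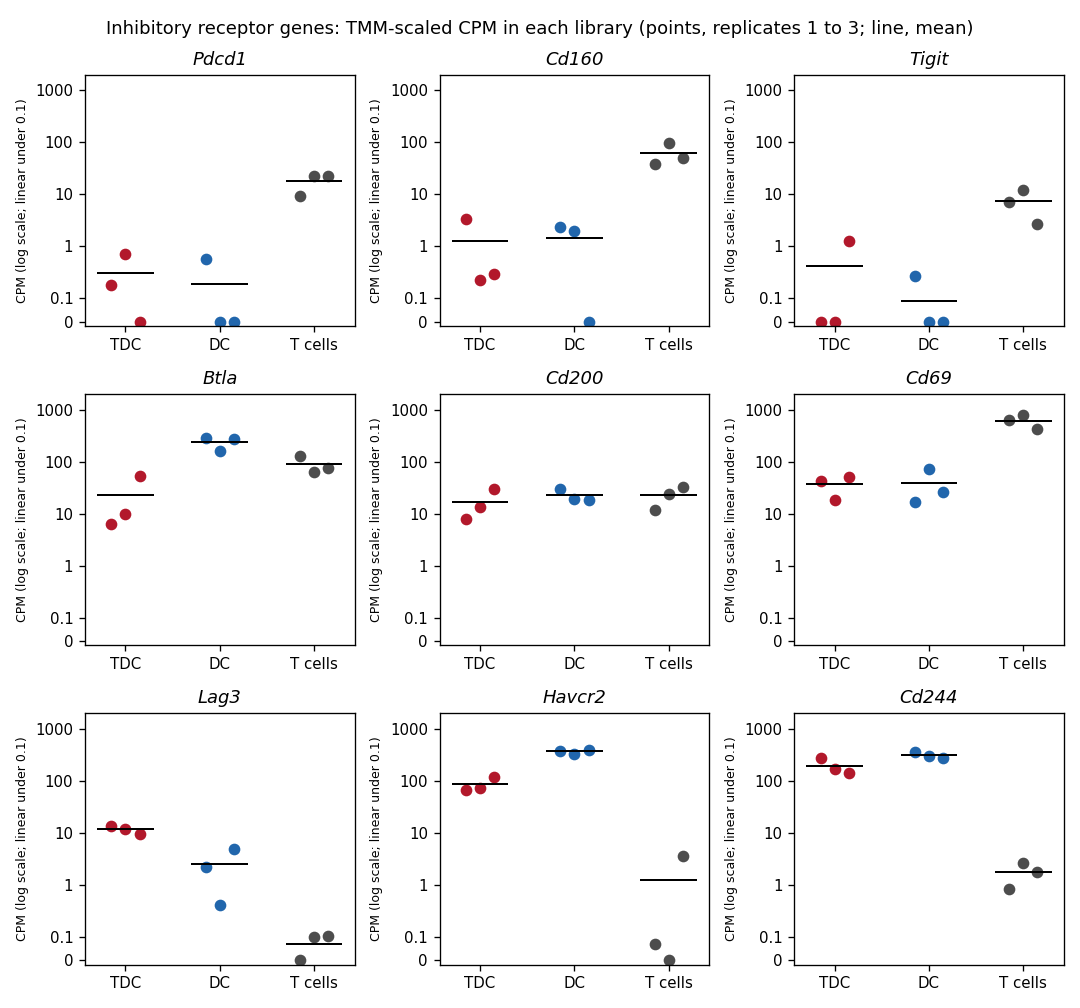
Levels of the 9 genes in each library. The vertical axis is TMM-scaled CPM on a log scale that is linear under 0.1, points are single libraries of TDC, DC and T cells, and the black line is the group mean. Pdcd1, Cd160, Tigit and Cd69 sit highest in T cells, Havcr2 and Btla highest in DC, and Lag3 highest in TDC, where its 3 libraries run from 9.46 to 13.8 CPM.

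The 9 genes lie at separate loci of the mouse genome (GRCm38 coordinates from GENCODE, since the counts table gives none). Pdcd1 (94038305 to 94052553, minus strand) and Cd244 (171559193 to 171609746, plus strand) are on chromosome 1, Cd160 (96798763 to 96829351, minus strand) is on chromosome 3 and Havcr2 (46454935 to 46481255, plus strand) on chromosome 11. Lag3 (124904361 to 124911705, minus strand) and Cd69 (129267325 to 129275436, minus strand) are on chromosome 6. Tigit (43648867 to 43664146, minus strand) is on chromosome 16. Btla (chromosome 16, 45224315 to 45257670, plus strand) and Cd200 (45382135 to 45409053, minus strand) are neighbours 124.5 kb apart. Cd160 overlaps Pdzk1 on the opposite strand, which had 22 reads over all 9 libraries. RefSeq promoters were at hand for 7 of the 9 genes, with Cd244 under its RefSeq name Cd244a. The 100 bases before the start are shown for 3 genes with higher means in DC than in T cells (Havcr2, Btla and Cd244). The same is shown for 3 with higher means in T cells (Pdcd1, Cd160 and Tigit). For Btla that difference was not called (adjusted p = 0.171 by edgeR). Its T cell mean of 89.0 CPM was above those of Pdcd1, Cd160 and Tigit. The genes were grouped by these same levels, so the 2 sets cannot test a link between motif and level. Sequences run 5′ to 3′ on the strand of the gene, with motif matches in capitals (GRCm38.p6, RefSeq starts).
Havcr2, chr11:46454831-46454930, plus strand: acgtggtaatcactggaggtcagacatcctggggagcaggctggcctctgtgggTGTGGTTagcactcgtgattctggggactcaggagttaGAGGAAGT
Btla, chr16:45224237-45224336, plus strand: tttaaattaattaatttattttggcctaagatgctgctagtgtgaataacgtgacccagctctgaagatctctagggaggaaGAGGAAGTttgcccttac
Cd244, chr1:171559093-171559192, plus strand: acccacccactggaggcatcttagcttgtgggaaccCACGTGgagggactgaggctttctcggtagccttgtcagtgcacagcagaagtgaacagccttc
Pdcd1, chr1:94052554-94052653, minus strand: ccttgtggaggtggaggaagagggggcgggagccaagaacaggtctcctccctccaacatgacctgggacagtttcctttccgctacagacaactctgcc
Cd160, chr3:96829352-96829451, minus strand: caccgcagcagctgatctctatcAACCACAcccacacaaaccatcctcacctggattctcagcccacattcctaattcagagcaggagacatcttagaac
Tigit, chr16:43664185-43664284, minus strand: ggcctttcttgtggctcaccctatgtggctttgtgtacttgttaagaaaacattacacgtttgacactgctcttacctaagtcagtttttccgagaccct

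The motifs, chosen after these promoters had been seen, were searched on both strands in the 250 bases before each start. No match overlapped another. The core of the myeloid factor PU.1 (GAGGAAGT) was found in Havcr2 and Btla, 2 of the 7 genes, and in 2.44% of 32851 promoters of the same length. In Btla it lies before the RefSeq start but inside the GENCODE gene, whose start is 22 bases further upstream. The RUNX motif (TGTGGTT, or AACCACA as its reverse complement) was found in Havcr2, Cd160, Tigit and Btla, and in 4.40% of all promoters. The match shown for Havcr2 is TGTGGTT and that for Cd160 is AACCACA. Matches in Tigit and Btla, both AACCACA, lie upstream of the bases shown, and Cd160 has a TGTGGTT match at a second RefSeq start that is not shown. The AP-1 motif (TGANTCA) was found in Cd244 and Havcr2 and in 6.75% of all promoters, upstream of the bases shown. The E-box (CACGTG) was found in Cd244 and in 6.02% of all promoters. A match is a description of letters, and no binding was measured here.

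PD-1, encoded by Pdcd1, binds PD-L1 and PD-L2 and recruits the phosphatase SHP-2 to antigen receptor complexes. Pdcd1 had 2, 13 and 0 reads in TDC libraries, 15, 0 and 0 in DC and 133, 455 and 433 in T cells. These were 0.180, 0.725 and 0 CPM in TDC pools, 0.574, 0 and 0 CPM in DC pools and 9.36, 22.5 and 22.3 CPM in T cell pools. Every T cell library lay above every library of the other populations, and 1 of 3 TDC libraries and 2 of 3 DC libraries had no read. Pdcd1 was lower in TDC than in T cell pools (log2 fold change -5.81, SE 1.51, adjusted p = 0.0138 by edgeR) and lower in DC than in T cells (-6.36, SE 1.54, adjusted p = 0.0125). Its level in TDC was 1.67% of that in T cells, just under the range of the T cell markers. TDC and DC were not told apart (0.56, SE 1.38, adjusted p = 0.847). The fold changes leaned on single libraries, with -7.66 for TDC against T cells without TDC replicate 2 and -11.16 for DC against T cells without DC replicate 1. The PD-1 ligand gene Cd274, named after its values were seen, stood at 114.9 ± 45.3 CPM in TDC pools, 243 ± 45.8 CPM in DC pools and 24.4 ± 7.55 CPM in T cell pools, and was higher in TDC than in T cell pools (2.24, adjusted p = 0.00168).

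LAG3 is a relative of CD4 that binds MHC class II and lowers T cell responses. Lag3 had 154, 212 and 127 reads in TDC libraries, 57, 6 and 81 in DC and 0, 2 and 2 in T cells. On the CPM scale these were 13.8, 11.8 and 9.46 in TDC, 2.18, 0.418 and 4.83 in DC and 0, 0.0988 and 0.103 in T cells. The 3 populations did not overlap, with TDC on top, DC between and the T cells of these untreated mice at 4 reads over all 3 libraries. Lag3 was higher in TDC than in T cell pools (log2 fold change 7.22, SE 1.21, adjusted p = 0.00134 by edgeR), and DC were above T cells as well (4.98, SE 1.13, adjusted p = 0.00887). TDC against DC gave 2.24 (SE 0.92) and missed the threshold with an adjusted p of 0.143, while DESeq2 gave an adjusted p of 0.0490 and limma-voom 0.0256. Without DC replicate 3 the fold change of DC against T cells was 4.08. The macrophage markers given above and Lag3 were both highest in TDC, lower in DC and lowest in T cells, and the part of those markers in the Lag3 result was not tested. Lgals3, whose product galectin-3 is among the ligands reported for LAG3, was at 974.6 ± 406 CPM in TDC pools and 9.66 ± 6.06 CPM in T cell pools (6.65, SE 0.68, adjusted p = 6.43e-05).

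TIM-3, encoded by Havcr2, binds galectin-9, CEACAM1, HMGB1 and phosphatidylserine and is found on exhausted T cells as well as on DC and macrophages. Havcr2 was counted at 67.1, 71.9 and 119.9 CPM in TDC libraries, 379, 333 and 393 CPM in DC pools and 0.0703, 0 and 3.66 CPM in T cell pools. Libraries of the 3 populations did not overlap, with DC highest and TDC between. T cell replicate 3 held 71 of the 72 reads of its group. Of the 10 conventional DC markers, 3 had no read in T cells, 3 were highest in T cell replicate 1, 2 in replicate 2 and 2 in replicate 3. The part of DC RNA in the Havcr2 reads of T cell replicate 3 was not tested. Havcr2 was higher in TDC than in T cell pools (log2 fold change 6.08, SE 1.22, adjusted p = 0.00358 by edgeR) and higher in DC than in T cells (8.17, SE 1.33, adjusted p = 0.00134). These fold changes were 11.20 and 13.28 without T cell replicate 3, and 5.49 and 7.58 without T cell replicate 2. TDC against DC gave -2.09 (SE 0.99, adjusted p = 0.202), with TDC at 23.4% of the DC level. Havcr2 and Btla are the genes with the PU.1 core shown above. The comparison of Havcr2 with DC was called when the T cells were left out of the fit (-2.12, adjusted p = 0.00770), when only T cell replicate 3 was left out (-2.09, adjusted p = 0.00798) and by limma-voom (-2.14, adjusted p = 0.00477). Lgals9, which encodes galectin-9, was higher in TDC than in DC (312 ± 80.9 CPM in TDC pools, 63.9 ± 20.0 CPM in DC pools, 2.29, SE 0.37, adjusted p = 0.00263) and not called against T cells, where it was at 346 ± 108 CPM.

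TIGIT competes with the activating receptor CD226 for the poliovirus receptor family. Tigit had 0, 0 and 17 reads in TDC libraries, 7, 0 and 0 in DC and 103, 248 and 53 in T cells. In CPM it stood at 0, 0 and 1.27 in TDC, 0.268, 0 and 0 in DC and 7.25, 12.3 and 2.73 in T cells. The T cell libraries lay above all others, and a single library held all the reads of each other population. TDC against T cells gave -4.12 on the log2 scale (SE 1.75) and was not called (adjusted p = 0.0964 by edgeR). Without TDC replicate 3, the 1 TDC library with reads, it was called with an adjusted p of 0.0202. The call of DC below T cells (-6.10, SE 1.93, adjusted p = 0.0432) was lost without any 1 of the 3 DC or 3 T cell libraries, with adjusted p from 0.0519 to 0.114, and its fold change was -9.88 without DC replicate 1. Nectin2, which encodes a lower-affinity ligand of TIGIT, was at 13.8 ± 4.45 CPM in TDC pools and 0.0469 ± 0.0812 CPM in T cell pools (2 reads, adjusted p = 0.000532), and at 2.25 ± 0.757 CPM in DC pools, where the difference from TDC was not called (2.61, adjusted p = 0.0715 by edgeR). It was called by DESeq2 (adjusted p = 0.000461), by limma-voom (0.0112), in the fit of 2 groups (0.0283) and without T cell replicate 1 (0.0414). Pvr, the gene of the poliovirus receptor, named after its values were seen, went the other way against T cells. It was at 8.64 ± 0.728 CPM in TDC pools, 7.30 ± 0.366 CPM in DC pools and 22.8 ± 7.84 CPM in T cell pools. By edgeR it was lower than in T cells (-1.40, adjusted p = 0.0278) and not called against DC (0.24, adjusted p = 0.766).

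BTLA and CD160 share a ligand, the tumour necrosis factor receptor family member HVEM (Tnfrsf14). Their genes had unlike patterns. Cd160 was at 3.32, 0.223 and 0.298 CPM in TDC libraries, 2.37, 1.95 and 0 CPM in DC pools and 38.6, 96.9 and 50.4 CPM in T cell pools. No TDC or DC library reached the lowest T cell library, and TDC overlapped with DC. Cd160 was lower in TDC than in T cell pools (log2 fold change -5.64, SE 1.34, adjusted p = 0.00901 by edgeR) and lower in DC than in T cells (-5.41, SE 1.31, adjusted p = 0.0125). TDC held 2.07% of the T cell level, close to the median of the T cell markers. Without TDC replicate 1 the fold change of TDC was -7.84, and for DC it was -6.00 without DC replicate 1 and -4.82 without DC replicate 3. Cd160 is also a gene of natural killer cells. Of the 8 natural killer markers, Ncr1 had no read in TDC and Klrb1c had reads in 1 TDC library, at 0.223 CPM. Klrk1, named after its values were seen, was at 83.6, 87.7 and 71.6 CPM in TDC pools, most of the list's sum there, and was called higher than in T cells (1.38, adjusted p = 0.0109 by edgeR). The summed level of the 8 was 92.3 to 108 CPM in TDC pools and 185 to 424 CPM in DC pools. In T cell pools it was 266 to 365 CPM. There Ncr1 was at 0.563, 0 and 0 CPM and Klrb1c at 8.02, 12.5 and 12.5 CPM. Klrd1, named in the same way, was at 268, 337 and 117 CPM in DC pools, most of the sum there. In T cell pools Klrd1 was at 163, 184 and 110 CPM, and Prf1, named likewise, at 63.1 ± 10.6 CPM. The part of natural killer cells in the level of Cd160 was not tested. Of the 8 markers, 2 had no read in DC.

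Btla was at 6.19, 9.70 and 52.8 CPM in TDC libraries, 284, 161 and 277 CPM in DC pools and 129, 62.4 and 75.6 CPM in T cell pools. TDC libraries lay below all libraries of both controls, and DC lay above T cells without overlap. Btla was lower in TDC than in DC pools (log2 fold change -3.39, SE 0.75, adjusted p = 0.0134 by edgeR), the 1 member called in that comparison, with TDC at 9.51% of the DC level. TDC against T cells gave -1.96 (SE 0.71, adjusted p = 0.0567) and DC against T cells 1.43 (SE 0.70, adjusted p = 0.171), neither of them called. TDC replicate 3 stood apart: without it Btla was called lower than in T cells (-3.49, adjusted p = 0.00143), the fold change against DC was -4.96 and DC against T cells was called as well (1.47, adjusted p = 0.0321). Without TDC replicate 2 the call against DC was lost (-3.05, adjusted p = 0.0582).

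Markers of cells that are known to make Btla also differed between the TDC libraries. Of the 10 conventional DC markers, 7 were highest in TDC replicate 3, as Btla was, and 3 in TDC replicate 1. Among the 7, Flt3, named after its values were seen, was at 13.7, 23.5 and 75.6 CPM in TDC pools. The 3 were H2-Ab1, Cd74 and Batf3, named in the same way, and H2-Ab1 was at 4645, 1870 and 3696 CPM. The summed level of the 10 markers, in which Cd74 and H2-Ab1 weigh most, was 16740, 8371 and 10700 CPM in TDC pools and so highest in replicate 1. T cell markers summed to 179, 85.9 and 277 CPM in TDC pools, 86.5, 37.2 and 71.0 CPM in DC pools and 6751, 8610 and 6780 CPM in T cell pools. B cells are a known source of Btla, and their 9 markers summed to 75.6 to 135 CPM in TDC pools, 218 to 297 CPM in DC pools and 14.8 to 34.8 CPM in T cell pools. Cd79b, named after its values were seen, made up most of that sum in TDC, at 109.9, 60.2 and 82.8 CPM, and was called higher than in T cells (2.18, adjusted p = 0.00442 by edgeR). Its TDC libraries all lay above those of DC (1.43, adjusted p = 0.0566). Of the other B cell genes, Ms4a1 was at 9.42, 6.52 and 28.7 CPM and Cd79a at 8.79, 0.892 and 1.34 CPM in TDC pools, while Pax5 had no read there. The part of these cells in the level of Btla was not tested. Tnfrsf14, the gene of the shared ligand, named after its values were seen, was at 14.2 ± 3.60 CPM in TDC pools and 2.70 ± 1.71 CPM in DC pools (2.38, adjusted p = 0.0435), against 5.51 ± 2.77 CPM in T cell pools.

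CD244, also called 2B4, belongs to the SLAM family and signals through the adaptors SAP (Sh2d1a) and EAT-2 (Sh2d1b1). Cd244 had 3107, 3022 and 1919 reads in TDC libraries, 9439, 4343 and 4524 in DC and 12, 54 and 34 in T cells. In CPM, it was at 279, 169 and 143 in TDC, 361, 303 and 270 in DC and 0.844, 2.67 and 1.75 in T cells. TDC and DC overlapped, and T cells lay far below both. Cd244 was higher in TDC than in T cell pools (log2 fold change 6.79, SE 0.52, adjusted p = 1.09e-05 by edgeR) and in DC than in T cells (7.45, SE 0.53, adjusted p = 1.29e-05), the smallest adjusted p among the 9 genes in both comparisons. Against DC, TDC were not told apart (-0.66, SE 0.40, adjusted p = 0.319). The Cd244 locus holds the gene Ly9 on the opposite strand, and whether the counting used strand is not stated. In T cells, where Cd244 was at 1.75 ± 0.911 CPM, Ly9 was at 171 ± 37.2 CPM.

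The adaptors of CD244 had unlike patterns. Sh2d1b1 was at 185, 97.6 and 80.6 CPM in TDC libraries and 47.8, 104.7 and 44.8 CPM in DC pools, with no read in T cells, at least 2172-fold higher in TDC against a floor of 3 reads over the T cell group (0.0557 CPM, adjusted p = 2.47e-05 by edgeR). Sh2d1a was at 0, 0.613 and 2.98 CPM in TDC pools and 75.1, 134.7 and 97.4 CPM in T cell pools (log2 fold change -6.40, SE 1.10, adjusted p = 0.00280). DC had no read of Sh2d1a, and neither had TDC replicate 1, while TDC replicate 3 held 40 of the 51 TDC reads. The TDC mean was at least 22.9-fold higher than DC against a floor of 0.0524 CPM (adjusted p = 0.0349 by edgeR). This call was lost without any single library other than TDC replicate 1, with adjusted p from 0.0504 to 0.0908. Cd48, the gene of the ligand, named after its values were seen, was present in all populations at 750 ± 293 CPM in TDC pools, 369.8 ± 81.8 CPM in DC pools and 372 ± 81.2 CPM in T cell pools.

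Cd69, the activation lectin, was at 43.1, 18.0 and 50.8 CPM in TDC libraries, 16.5, 72.5 and 26.4 CPM in DC pools and 645, 775.5 and 426 CPM in T cell pools. TDC and DC overlapped, and all T cell libraries were above both. Cd69 was lower in TDC than in T cell pools (log2 fold change -4.05, SE 0.63, adjusted p = 0.000821 by edgeR) and lower in DC than in T cells (-4.00, SE 0.63, adjusted p = 0.00107, and -4.78 without DC replicate 2). TDC and DC means were close, at 37.3 ± 17.2 CPM in TDC pools and 38.5 ± 29.9 CPM in DC pools (-0.04, SE 0.56, adjusted p = 0.976). S1pr1, the gene of the exit receptor that CD69 removes, was at 11.04, 32.3 and 45.3 CPM in TDC pools, 0.727, 0.0697 and 0 CPM in DC pools and 652, 509 and 401 CPM in T cell pools. In TDC it was below T cells (-4.14, SE 0.78, adjusted p = 0.00263) and above DC (6.55, SE 0.93, adjusted p = 0.00154).

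Cd200 was at 7.72, 13.3 and 29.6 CPM in TDC libraries, 30.1, 19.2 and 18.4 CPM in DC pools and 11.6, 23.5 and 32.1 CPM in T cell pools. All 3 populations overlapped, and no comparison was called: -0.41 (SE 0.56, adjusted p = 0.617 by edgeR) for TDC against T cells, -0.42 (SE 0.56, adjusted p = 0.685) for TDC against DC and 0.01 (SE 0.55, adjusted p = 1.00) for DC against T cells. Cd200r1, which encodes its receptor on myeloid cells, was higher in TDC than in either control. It was at 129, 93.6 and 107.5 CPM in TDC pools, 37.3, 46.3 and 36.0 CPM in DC pools and 25.7, 31.7 and 33.3 CPM in T cell pools, with log2 fold changes of 1.46 against DC (SE 0.29, adjusted p = 0.00770) and 1.86 against T cells (SE 0.30, adjusted p = 0.000875). All TDC libraries lay above all control libraries for Cd200r1.

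**Figure D2:**
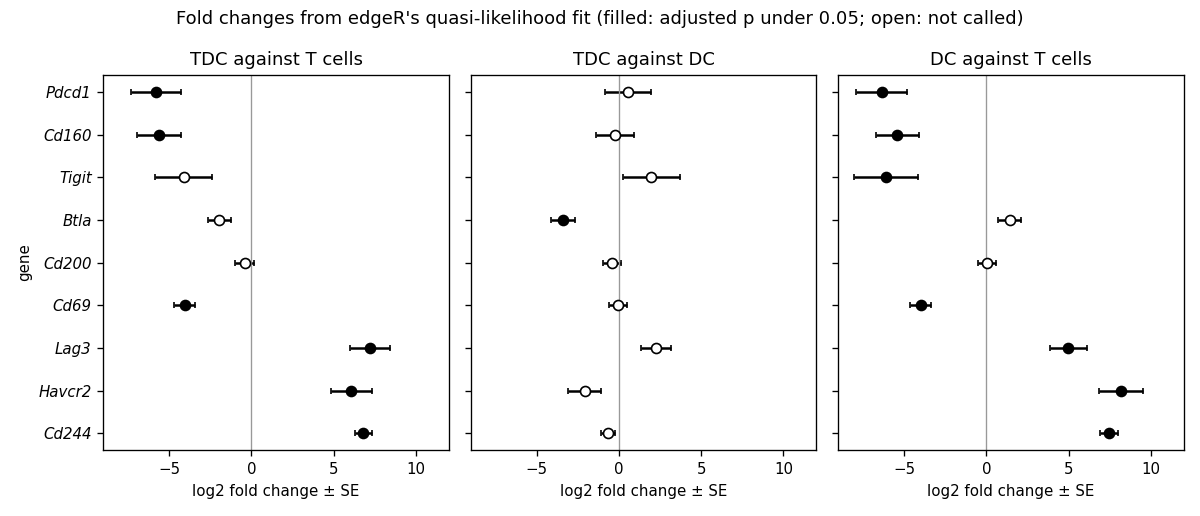
Fold changes of the 9 genes in the 3 comparisons. The horizontal axis is the log2 fold change with its SE as the bar, and filled points passed an adjusted p of 0.05 in edgeR's quasi-likelihood fit. Against T cells, Pdcd1, Cd160 and Cd69 are called on the negative side and Lag3, Havcr2 and Cd244 on the positive side, and against DC only Btla is called.

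The level of each gene in TDC can be set against markers of the control it is compared with. As a percent of the T cell mean, TDC held 1.67% of Pdcd1, 2.07% of Cd160, 5.70% of Tigit, 6.06% of Cd69, 25.7% of Btla and 75.3% of Cd200, beside 1.85% to 4.98% for the 10 T cell markers. Pdcd1 and Cd160 thus lay just under and within the range of the markers, and the other genes of the 6 above it. Lag3, Havcr2 and Cd244 were at 17400%, 6947% and 11220% of their low T cell means. As a percent of the DC mean, TDC held 9.51% of Btla, 23.4% of Havcr2 and 63.2% of Cd244. The 10 conventional DC markers ran from 4.66% to 32.4%, with a median of 13.1%. Btla and Havcr2 thus lay within the range of those markers and Cd244 above it. DC held 6.25% of the T cell level of Cd69. Of the 10 T cell markers, 4 had no read in DC, while Tcf7, named after its values were seen, was at 6.615% of its T cell level there. The rest were far lower in DC, with Cd247 at 0.339%, Cd3d at 0.0910%, Bcl11b at 0.0261%, Trac at 0.0126% and Lat at 0.00490%. Of these, all but Trac were named after their values were seen. These ratios are descriptions with no test.

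**Figure D3:**
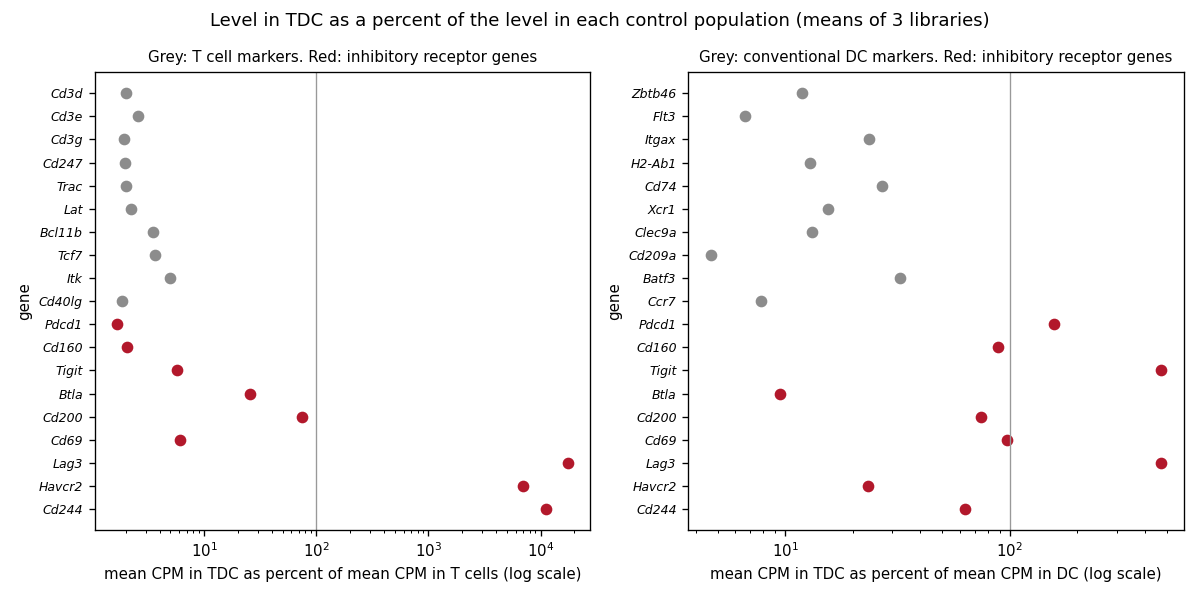
Mean CPM in TDC pools as a percent of the mean in T cells (left) and in DC (right), on log axes, with the vertical line at 100. Red points are the 9 genes and grey points the markers of that control population. On the left, Pdcd1 at 1.67% and Cd160 at 2.07% sit among or beside the T cell markers, while Cd200 is at 75.3%.

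The genes around the receptors were described through 5 lists of known partners, regulators and kin. Of 14 ligands and counter-receptors, 12 were tested, and 6 were higher and 2 lower than in T cells, with a median log2 fold change of 1.52 beside 0.14 over all tested genes. Against DC, 4 were higher, with a median of 1.13 beside 0.01. The shares of all tested genes, for these counts and those of the next list, were 21.8% higher and 11.2% lower than in T cells. They were 9.55% higher and 4.60% lower than in DC. No ligand was lower than in DC by edgeR, with 2 at an unadjusted p under 0.05, and 1 without TDC replicate 1. The 4 higher than in DC were Lgals9, Cd200r1, S1pr1 and Tnfrsf14. The 2 lower than in T cells were S1pr1 and Pvr (Pvr was chosen after its values were seen), and 1 was left without any one of TDC replicates 1, 2 and 3 or T cell replicates 1 and 2. Of the 12 tested phosphatases and adaptors, 5 were higher and 2 lower than in T cells (median -0.27), and 2 were higher and 1 lower than in DC (median 0.06). Cblb, a ubiquitin ligase that restrains T cell activation, was lower in TDC than in both, at 14.1 ± 4.94 CPM in TDC pools, 40.9 ± 7.37 CPM in DC pools and 54.6 ± 7.21 CPM in T cell pools (-1.54, adjusted p = 0.0183 by edgeR against DC, lost without DC replicate 3 at 0.0524, and -1.96, adjusted p = 0.00254 against T cells). Dok2, a docking protein, was higher in TDC than in DC (9.33, SE 0.84, adjusted p = 0.000196), with 87.5 ± 36.9 CPM in TDC pools, 0.102 ± 0.177 CPM in DC pools and 213 ± 22.7 CPM in T cell pools. The 5 higher than in T cells were Sh2d1b1 and, chosen after their values were seen, the phosphatase genes Ptpn6 and Inpp5d and the adaptor genes Grb2 and Dok1, and the 2 lower were Sh2d1a and Cblb. The 2 higher than in DC were Sh2d1a and Dok2. The count of 5 was 3 without T cell replicate 1. The 2 higher than in DC were 1 without any one library other than TDC replicate 1. The 1 lower was 2 without DC replicate 2 and 0 without DC replicate 3.

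Other inhibitory receptors were called in both directions. Of 15 tested, 6 were higher and 7 lower than in T cells (median -1.82), and 5 were higher and 4 lower than in DC (median -0.35). Over all tested genes, 21.8% were higher and 11.2% lower than in T cells, and 9.55% higher and 4.60% lower than in DC. Lair1, a collagen receptor, was at 697, 503 and 508 CPM in TDC pools, 209, 190 and 165 CPM in DC pools and 20.8, 14.7 and 26.6 CPM in T cell pools. TDC were above T cells (4.78, SE 0.35, adjusted p = 8.33e-06 by edgeR) and above DC (1.60, SE 0.31, adjusted p = 0.00668). Vsir, which encodes VISTA, was higher as well, at 834 ± 140.5 CPM in TDC pools, 195 ± 39.1 CPM in DC pools and 310 ± 32.2 CPM in T cell pools, with log2 fold changes of 2.10 against DC (adjusted p = 0.00131) and 1.43 against T cells (adjusted p = 0.00337). On the other side, Cd5, a scavenger receptor family member of T cells, was at 9.46 ± 6.83 CPM in TDC pools and 272 ± 43.9 CPM in T cell pools (-4.84, SE 0.53, adjusted p = 9.47e-05). Cd72 was lower in TDC than in both controls (15.3 ± 5.83 CPM in TDC pools, 175 ± 118 CPM in DC pools and 99.6 ± 24.4 CPM in T cell pools, adjusted p = 0.00211 against DC and 0.00271 against T cells). Cd22, a sialic acid receptor known from B cells, was between them, at 21.5 ± 4.24 CPM in TDC pools, 94.9 ± 45.9 CPM in DC pools and 1.36 ± 0.621 CPM in T cell pools. Its call against DC (-2.14, adjusted p = 0.0129) was lost without TDC replicate 1 or 3 (adjusted p = 0.0517 and 0.0530), and the 4 lower than in DC were 2 without TDC replicate 1. Those 4 were Cd72, Cd22 and, chosen after their values were seen, Cd101 and Adora2a, and the 5 higher than in DC were Lair1, Vsir and, chosen in that way too, Cd96, Pecam1 and Pvrig.

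Activating kin, which share ligands or family with the 9 genes, were called lower than in T cells more often than higher. They were receptors apart from Tnfsf14, the gene of a ligand, which was not called in TDC against either control. Of 11 tested, 6 were lower and 1 higher than in T cells (median -2.57), and 5 were higher and 1 lower than in DC (median 1.64). Over all tested genes, 11.2% were lower and 21.8% higher than in T cells, and 9.55% higher and 4.60% lower than in DC. Cd28, the costimulatory receptor opposed by PD-1, was at 12.7, 11.9 and 26.7 CPM in TDC pools, 0, 0.0697 and 0 CPM in DC pools and 496, 501 and 281 CPM in T cell pools. It was below T cells (-4.64, SE 0.51, adjusted p = 9.16e-05 by edgeR) in TDC, and DC held a single read of it. Cd2, an adhesion receptor that binds CD48 as CD244 does, was at 18.7 ± 8.48 CPM in TDC pools, 0.942 ± 0.331 CPM in DC pools and 825 ± 361 CPM in T cell pools (4.32, adjusted p = 0.000775 against DC, and -5.47, adjusted p = 4.56e-05 against T cells). Of the SLAM family, Slamf6 was lower in TDC than in T cells (-2.57, SE 0.32, adjusted p = 0.000177). Cd84 was higher in TDC than in DC, at 244 ± 35.3 CPM in TDC pools, 2.62 ± 2.32 CPM in DC pools and 133 ± 28.7 CPM in T cell pools (6.54, SE 1.04, adjusted p = 0.00257). The 5 higher than in DC were Cd28, Cd2, Cd84 and, chosen after their values were seen, Icos and Ly9, and the 1 lower was Slamf7, chosen likewise. The 1 gene higher than in T cells was Ly9, and that call was absent without any one of TDC replicates 2 and 3 and T cell replicates 1, 2 and 3, while 2 were called without DC replicate 3.

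Of 13 transcription factors known to act on these genes, 2 were higher and 4 lower than in T cells (median -1.19). Against DC, 2 were higher and 3 lower (median -0.10). Over all tested genes, 21.8% were higher and 11.2% lower than in T cells, and 9.55% higher and 4.60% lower than in DC. Tox, which sustains inhibitory receptor genes in exhausted T cells, was at 1.08, 0.725 and 3.65 CPM in TDC pools, 0.153, 0 and 0 CPM in DC pools and 50.4, 37.6 and 47.3 CPM in T cell pools (-4.63, SE 0.82, adjusted p = 0.00180 by edgeR against T cells). Maf and Prdm1, which co-activate several of these genes in T cells, were higher in TDC than in T cell pools. Maf was at 112 ± 17.7 CPM in TDC pools, 0.697 ± 0.757 CPM in DC pools and 7.27 ± 2.90 CPM in T cell pools (7.36, adjusted p = 0.000533 against DC, and 3.94, adjusted p = 0.00188 against T cells). Prdm1 was at 36.6 ± 17.5 CPM in TDC pools, 14.3 ± 10.3 CPM in DC pools and 2.99 ± 1.05 CPM in T cell pools (3.61, SE 0.66, adjusted p = 0.00227 against T cells). Nr4a2 and Nr4a3, nuclear receptors induced by antigen receptor signals, were lower in TDC than in DC (-4.45, adjusted p = 0.000468, and -4.57, adjusted p = 0.00275), with 4.07 ± 1.498 and 4.48 ± 2.23 CPM in TDC pools and 89.0 ± 40.7 and 106 ± 54.2 CPM in DC pools. The 4 lower than in T cells were Tox and, chosen after their values were seen, Eomes, Tbx21 and Batf, and the 3 lower than in DC were Nr4a2, Nr4a3 and, chosen likewise, Nr4a1. The count of 4 was 2 without TDC replicate 2 or T cell replicate 2.

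**Figure D4:**
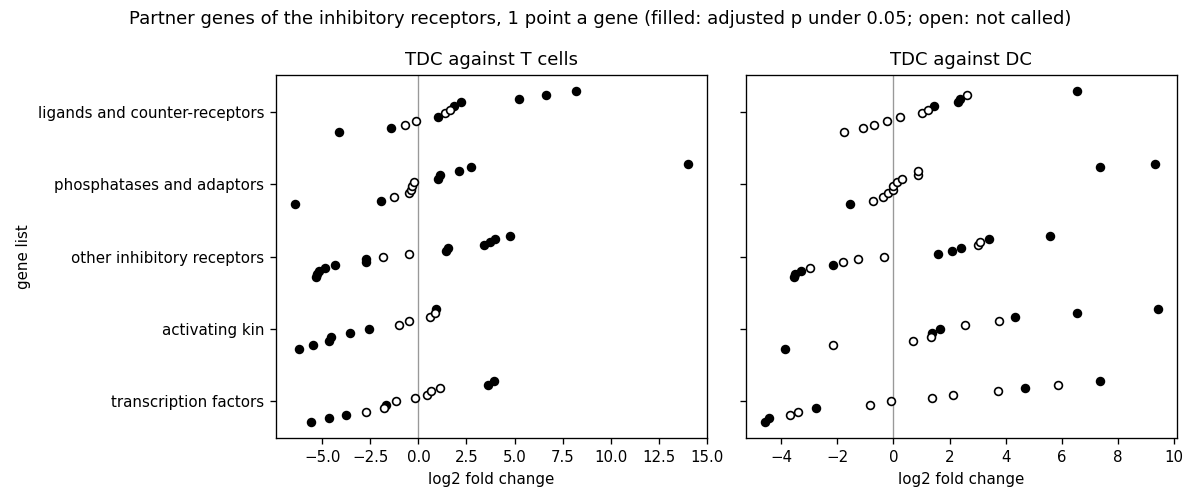
Log2 fold changes of the tested genes of the 5 partner lists, 1 point a gene, for TDC against T cells (left) and TDC against DC (right). Filled points passed an adjusted p of 0.05 in edgeR's quasi-likelihood fit. Activating kin lie mostly left of 0 against T cells (median -2.57) and right of 0 against DC (median 1.64).

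Genes with the most similar pattern were listed for each member by Pearson's r of log2 CPM over the 9 libraries, among genes with a mean of at least 5 CPM. The 9 points share the 3 populations, so r mostly follows the differences between them and is a description. Nearest to Lag3 were Klra2 (r = 0.986), Map2k3 and Itm2c, and Klra2 was at 49.7 CPM in TDC pools, 3.25 CPM in DC pools and had no read in T cells. Nearest to Havcr2 were Cd80 (r = 0.989), Tlcd2 and Napsa, and nearest to Cd244 were Cd74 (r = 0.996), Cnpy3 and Esam. Btla was nearest to Adgrg5 (r = 0.986), Map4k1 and Clec2i, and Adgrg5 was at 17.3 CPM in TDC pools, 369 CPM in DC pools and 86.2 CPM in T cell pools. Pdcd1 was nearest to Klhdc1 (r = 0.974), Kbtbd11 and Dkc1. For Tigit the list was Gimap7 (r = 0.966), Il7r and Ddx55, for Cd160 it was Cers4 (r = 0.984), Ccdc92 and Serbp1, and for Cd69 it was Rps6kb1 (r = 0.990), Ldhb and Rgcc. Cd200 had the lowest values, with Kif22 (r = 0.867), Cdc20 and Mcm6.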

How the data were processed

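RNA of 3 sorted spleen populations was sequenced in 9 libraries from stranded Lexogen QuantSeq 3' libraries, per the labels' protocols, so that a read marks a transcript's end. The deposited table gives whole-number read counts per gene symbol, not normalised. FastQC, MultiQC, Trimmomatic, STAR and featureCounts are named in the submitters' processing notes, with no versions. The notes name the human build hg38 although samples and symbols are mouse, and annotation and strand setting are not given in the sources used.

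Counts were tested with edgeR 4.0.16 in R 4.3.3: filterByExpr (minimum count 10, minimum total 15), TMM factors and a robust quasi-likelihood fit to the 3 groups together (6 residual degrees of freedom, common biological coefficient of variation 0.588), with Benjamini-Hochberg adjustment at 0.05. SE is the log2 fold change divided by the root of F. The script was tested on simulated data. Alternatives were DESeq2 1.42.0, limma-voom (limma 3.58.1), other scalings and filters, fits of 2 groups, a replicate block, and leaving out libraries. Counting error limits the genes with few reads, and intervals and floors (3 reads over a group) cover counting error only.

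The members and lists were chosen with earlier results of these data known. Named were all 9 members, from each list up to 3 genes with the smallest adjusted p in each comparison of TDC, 8 markers and the 3 most similar genes per member, and other names are marked in the text. Protein sequences were not used here. Replicates of a group differed beyond sampling noise (chi-square per degree of freedom 62.3 to 250.0). Whether pools of 1 number share animals is not stated, and p-values measure the spread between pools.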

Additional observations from a re-analysis of the deposited data

How the results depend on the processing

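Of 27 tests of the 9 genes, 9 kept direction and side of the threshold under each of 21 alternatives that gave a value. No called fold change turned round. Among those not called, the log2 fold change changed sign for Cd200 in DC against T cells (-0.02 with DESeq2's size factors, -0.29 by library size, -0.10 by upper-quartile factors, -0.02 by DESeq2 and -0.03 with 2 groups), for Cd160 in TDC against DC (0.19 by limma-voom) and for Cd69 there (0.14 by limma-voom, 0.18 with the replicate block). It also did so with libraries left out. Those ranges were -1.80 to 5.71 for Pdcd1, -4.47 to 6.43 for Tigit, -2.44 to 0.47 for Cd160, -1.22 to 0.19 for Cd200 and -0.53 to 1.05 for Cd69 in TDC against DC, -0.56 to 0.50 for Cd200 in DC against T cells and -0.55 to 0.15 for Lgals9 in TDC against T cells. Of the 9 genes, those lower in TDC than in T cells numbered 3 in the fit reported, 5 by limma-voom and 2 to 5 with libraries left out. Those lower than in DC numbered 1 as reported, 0 by DESeq2's Wald test (which gave Btla no adjusted p, so no call was lost there), 2 by limma-voom, 2 with 2 groups in the fit and 0 to 2 with libraries left out. Those higher than in DC numbered 0 as reported, 1 by DESeq2 and 1 by limma-voom. Those lower in DC than in T cells numbered 4 as reported and 1 to 4 with libraries left out. The cause was not tested. With replicate 1, 2 or 3 left out of all groups at once, calls of Pdcd1, Lag3, Tigit, Cd160 and Btla were lost.

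Scaling by library size moved the middle log2 fold change over all tested genes by -0.61 in the comparison of TDC with T cells and by -0.29 in both others, and moved the higher share of calls from 66.0% to 42.9%, from 67.5% to 53.1% and from 64.7% to 50.2%. Upper-quartile factors shifted it by -0.25, -0.13 and -0.08. Over all genes, those lower in TDC than in T cells numbered 1654 as reported and 3321 by library size, and those lower in DC than in T cells 1237 and 1886. Those lower in TDC than in DC numbered 677 as reported, 1234 by DESeq2, 1024 by limma-voom and 431 with the replicate block. With libraries left out, the counts ran from 652 to 1945, 552 to 1384 and 81 to 611, and the higher genes from 1984 to 3585 against T cells, 548 to 1365 against DC and 1283 to 2492 for DC against T cells.

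Correlations of deviations ran from -0.384 to 0.224 between same-numbered libraries and from -0.197 to 0.363 between others. Deviations from means of 3 libraries cannot show whether same-numbered pools were paired. With the replicate block, Btla was called lower in TDC than in T cells (-2.35, adjusted p = 0.0338) and Tigit lost its call for DC against T cells (-6.53, adjusted p = 0.0808), so 4 of the 9 genes were lower in TDC than in T cells and 3 lower in DC than in T cells. Without the filter on low counts, Cd160 lost its call for DC against T cells (adjusted p = 0.0661). Scaling by library size or upper-quartile factors and the 5 CPM filter called Btla in TDC against T cells (adjusted p = 0.0329, 0.0367 and 0.0499). DESeq2, limma-voom and the fit of 2 groups called Tigit there (adjusted p = 0.0453, 0.00671 and 0.0464). At a read worth 0.0383 to 0.0897 CPM, differences in Pdcd1 and Tigit between TDC and DC were not detectable.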
